A study of Mus musculus with 32 samples.

Results

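The genes described here are the mouse Wnt ligands, their Frizzled receptors and Lrp co-receptors, the R-spondins with their Lgr receptors, secreted Wnt antagonists, and genes through which the pathway limits itself. They were taken by gene symbol from the protein-coding rows of every count table: symbols that begin with Wnt, Fzd or Rspo and a digit, and a fixed set of others such as Axin2, Znrf3 and Dkk1. The rule found 53 of 55573 genes, made up of 19 ligands, 10 Frizzled receptors, 2 co-receptors, 4 R-spondins, 3 R-spondin receptors, 9 secreted antagonists and 6 feedback genes. The symbol Sfrp3 matched no row, because that gene is listed as Frzb, which is given with the other antagonists further on. The RNA-seq libraries came from embryonic stem cells (ESC) of the mouse strain 129S5/SvEvBrd and from neural cells derived from them. All cells carried a tag named MD on Smarce1, the gene of the chromatin remodelling subunit BAF57, and the R42A groups carried the same tag with the substitution R42A, written Smarce1-MD(R42A). The labels do not spell out MD; from general knowledge it is taken to be a mitotic degron, which marks a protein for destruction when a cell leaves mitosis, with R42A as the form that is not destroyed. The ESC were untreated and grown with LIF and serum on gelatin, as 4 R42A clones (A04, A10, A01, A02) and 4 MD clones (09, 30, 45, 47) with 3 libraries each. The neural cells had spent 6 days in RHB-A, a neural induction medium, and carried the clone labels A04 and A10 (R42A) and 09 and 30 (MD), with 2 libraries each. Nothing in the labels says that the libraries of 1 clone are separate cultures, so the clone sum was the replicate.

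Wnt ligands are secreted lipid-modified proteins that bind a Frizzled receptor together with Lrp5 or Lrp6. In the canonical branch this stops the destruction of beta-catenin, which then activates target genes with TCF/LEF factors. Some targets, such as Axin2, Znrf3 and Rnf43, act back on the pathway and limit it, R-spondins bound to Lgr4, Lgr5 or Lgr6 relieve the receptor removal by Znrf3 and Rnf43, and Dkk, Sfrp and Notum proteins block signalling outside the cell. In ESC the pathway is known for supporting self-renewal, and in the early neural plate Wnt signals are known for patterning the midbrain, the hindbrain and the dorsal neural tube.

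Levels are CPM, a gene's count relative to the library size after scaling by the TMM method, 1 value per clone sum, given as mean ± SD over clones or clone labels. Total counts per library ran from 38699952 to 96424443. A first ESC series held the clones A04, A10, 09 and 30 and a second the clones A01, A02, 45 and 47, and the neural libraries were all of a later run, so effects of stage and of library run cannot be told apart. Neural libraries of different clone labels differed no more than those of 1 label. Between neural libraries of different labels the median absolute log2 ratio of a gene ran from 0.0618 to 0.0933 in R42A and from 0.0712 to 0.0853 in MD, and between libraries of 1 label from 0.0816 to 0.103 and from 0.0505 to 0.103. The ESC of A04 and A10 differed by a median log2 of 0.291 over chromosome 8 genes, and the neural libraries with these labels by 0.011. Neural results are therefore given also with the 4 neural libraries of a genotype taken as 1 sample. Genes of 2 chromosomes differed as blocks between the genotypes. In MD, chromosome 11 genes had a median log2 difference of 0.453 in ESC and 0.475 in neural cells, and chromosome 8 genes of -0.455 and -0.277. Chromosome 11 holds 9 of the members (Fzd2, Axin2, Rnf43, Znrf3, Wnt3, Wnt3a, Wnt9a, Wnt9b and Notum), and chromosome 8 holds 3 (Nkd1, Dkk4 and Sfrp1). For these genes the value with each chromosome scaled separately is given beside the main one where it changes a call or a direction, or moves the value by over 1.5 times. ESC markers (10 genes, Pou5f1 and Nanog among them) summed to 3759 to 6106 CPM in ESC clones and 254 to 335 CPM in neural cells. Neural progenitor markers (8 genes, Sox1 and Pax6 among them) summed to 178 to 509 CPM in ESC and to 2680 to 2919 CPM in neural cells. Endoderm markers (8 genes, Sox17 and Gata4 among them) summed to 3.11 to 8.51 CPM in R42A ESC and 161 to 177 CPM in R42A neural cells. In MD they summed to 4.12 to 6.28 CPM and 136 to 147 CPM. All 8 rose in R42A and 6 in MD, with Afp and Apoa1 under 1 CPM throughout. The part of other cell types in the stage changes was not tested.

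From ESC to neural cells most members rose. In R42A 40 of 52 tested members rose and 7 fell, where 37.9% of all 23844 tested genes rose and 40.4% fell. In MD 39 rose and 6 fell, beside 40.3% and 41.0% of all genes. In either direction 78.3% of all genes changed in R42A and 81.3% in MD. The median log2 change of the members was 3.23 in R42A and 2.76 in MD, and that of all tested genes was -0.064 and -0.024. Of the 52 members, 50 in R42A and 47 in MD had neural values that did not overlap those of first-series ESC, beside 88.5% and 93.5% of all genes. Over all 4 ESC clones of a genotype some of these did overlap, such as Lrp5 in both genotypes and Fzd7 in MD. In bulk RNA, more cells that express a gene and more RNA per cell cannot be told apart, here and in every comparison that follows. The 53rd member, Dkk4, a secreted antagonist, was not tested in any comparison and reached at most 13 counts in a group.

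**Figure D1:**
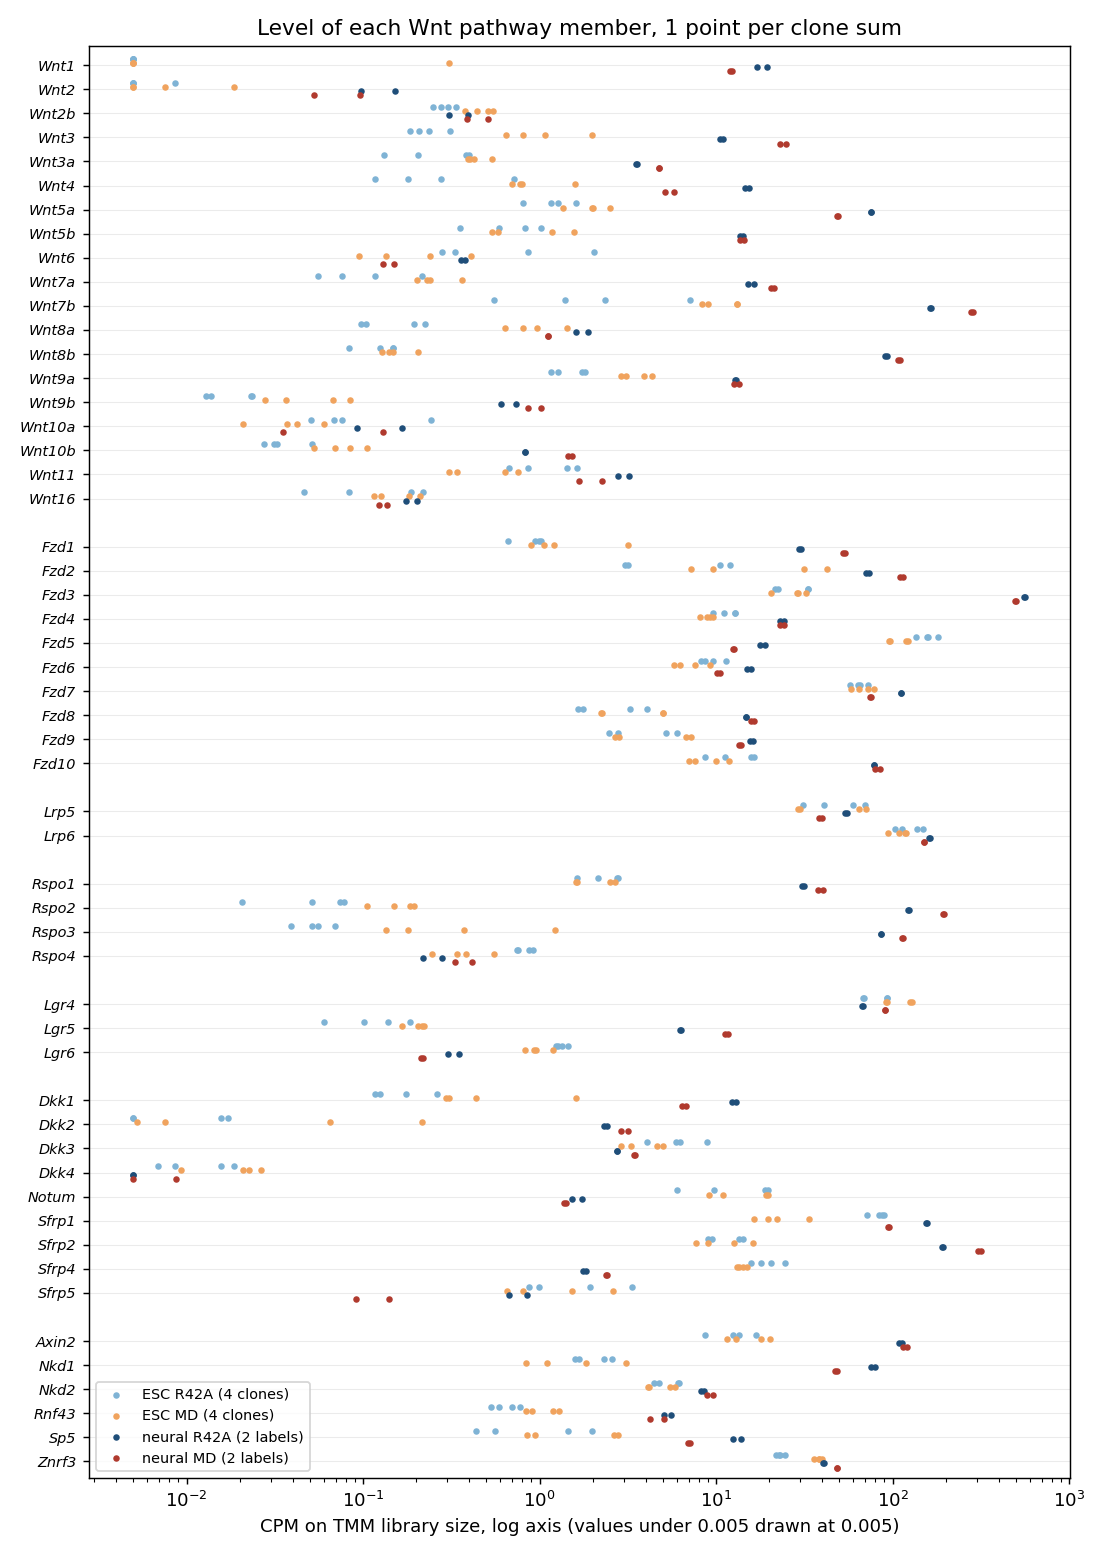
Level of each of the 53 members in CPM (log axis), 1 point per clone sum, for 4 R42A and 4 MD ESC clones and for 2 neural clone labels of each genotype, with members grouped by role. Most ligands, the R-spondins Rspo1 to Rspo3 and the feedback gene Axin2 sit far higher in neural cells, while Fzd5, Notum and Sfrp4 sit higher in ESC, and values under 0.005 CPM are drawn at 0.005.

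Of 19 ligands, 15 rose in R42A and 14 in MD, and 0 fell in either. Wnt1, a ligand of the midbrain-hindbrain boundary and the dorsal neural tube, had 0 counts in all 4 R42A ESC clones and 19.4 and 17.2 CPM in the R42A neural labels A04 and A10. Against the 3 counts that a total of 0 allows over the R42A ESC clones A04 and A10, neural Wnt1 was at least 2726-fold higher, and with Wnt1 at that bound the median change of the members in R42A was still 3.23. In MD, Wnt1 had 1 count in clone 09, 0 in clones 30 and 47 and 0.308 CPM in clone 45, and 12.24 and 12.03 CPM in the neural labels 09 and 30. Wnt8b, a ligand of the forebrain and midbrain roof, lay at 0.126 ± 0.0307 CPM in R42A ESC (SD, n = 4) and at 91.2 and 92.6 CPM in R42A neural cells, a log2 change of 9.34 ± 0.13 (SE; adjusted p = 1.98e-08 in edgeR). In MD it went from 0.155 ± 0.0342 to 108 and 110.3 CPM. No ESC clone of either genotype had more than 0.206 CPM of Wnt8b. Wnt7a rose by 6.79 ± 0.41 in R42A and 6.38 ± 0.40 in MD, to 15.8 ± 0.945 and 20.9 ± 0.638 CPM (SD, n = 2). Wnt5a, a ligand of the non-canonical branch, rose by 5.91 ± 0.33 and 4.76 ± 0.31, to 75.6 ± 0.331 and 48.6 ± 0.487 CPM. Wnt3, Wnt3a, Wnt4, Wnt5b, Wnt7b, Wnt9a, Wnt9b, Wnt10b, Wnt11 and Wnt2 also rose in both genotypes. Wnt2 had only 3 counts in the first-series R42A ESC and 29 in R42A neural cells. Wnt2b, Wnt6, Wnt10a and Wnt16 did not pass in either genotype, and each stayed under 1 CPM in every group mean. Per kilobase of exon, the neural R42A ligand levels were led by Wnt7b at 33.3, Wnt8b at 26.4, Wnt5a at 9.66 and Wnt1 at 7.68 CPM per kb.

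The Frizzled receptors changed their order between the stages. Of 10 receptors, 9 rose and 1 fell in each genotype. Fzd5, the most abundant Frizzled of the ESC per kilobase at 22.8 CPM per kb in R42A, was the receptor that fell. It lay at 156, 137, 180 and 158 CPM in the R42A ESC clones A04, A10, A01 and A02 and at 18.9 and 17.9 CPM in the neural labels A04 and A10. The change was -3.04 ± 0.08 in R42A and -3.02 ± 0.08 in MD (adjusted p = 1.01e-07 and 9.28e-08 in edgeR). Fzd3, a receptor known for axon guidance, rose from 27.7 ± 6.56 CPM (SD, n = 4) to 560 ± 6.72 CPM (SD, n = 2) in R42A and led the neural receptors at 43.8 CPM per kb. Fzd1 rose by 5.19 ± 0.17 in R42A and 5.68 ± 0.17 in MD. Fzd2, Fzd8, Fzd9 and Fzd10 rose by 2.54 to 4.49 in R42A and 2.23 to 3.66 in MD. Fzd4, Fzd6 and Fzd7 rose by less than 1.3 on the log2 scale in both genotypes. The co-receptors Lrp5 and Lrp6, which bind Wnt beside Frizzled, rose by 0.55 ± 0.12 and 0.14 ± 0.05 in R42A. In MD they rose by 0.32 ± 0.12 and 0.27 ± 0.05. These rises are against first-series ESC only. Over all 4 R42A ESC clones Lrp5 ran from 31.01 to 69.75 CPM, which spans its neural values of 54.04 and 55.3 CPM. Over all 4 MD ESC clones it ran from 29.19 to 71.02 CPM, which spans 38.54 and 39.63 CPM. The Lrp6 call in R42A was lost in 8 of 11 alternatives, RLE scaling and those without A04, 09 or 30 among them (adjusted p up to 0.243 in edgeR). The Lrp5 call in MD was lost in 7 of 11, RLE scaling and those without 09 or 30 among them (adjusted p up to 0.302), and the MD call of Lrp6 without 09 or 30. For Fzd7 in MD, at 0.20, the call was lost in 7 of 11, RLE scaling among them, and for Fzd6 in MD in 4 of 11, both without 09 or 30 too.

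R-spondins showed some of the widest differences between ESC and neural cells. Rspo2 lay at 0.0741, 0.0516, 0.0207 and 0.0779 CPM in the R42A ESC clones A04, A10, A01 and A02, and at 123 CPM in both R42A neural labels. In MD it lay at 0.194, 0.184, 0.105 and 0.151 CPM in clones 09, 30, 45 and 47 and at 195 and 194 CPM in the neural labels. The log2 changes were 10.88 ± 0.10 in R42A and 9.92 ± 0.09 in MD. Rspo3 lay at 0.0538 ± 0.0126 CPM in R42A ESC (SD, n = 4) and at 86.0 and 86.2 CPM in R42A neural cells, a log2 change of 10.42 ± 0.28, and it changed by 8.57 ± 0.24 in MD. Rspo1 rose from 2.33 ± 0.546 to 31.0 ± 0.454 CPM in R42A, by 3.99 ± 0.13, and by 4.52 ± 0.14 in MD. Rspo4 fell in R42A, from 0.823 ± 0.0831 to 0.250 ± 0.0448 CPM (-1.75 ± 0.27), and its change in MD was 0.25 ± 0.27 (adjusted p = 0.408 in edgeR). The receptors of the R-spondins did not move as a group: Lgr5 rose by 5.64 ± 0.38 and 5.67 ± 0.37, Lgr4 fell by 0.51 ± 0.04 and 0.57 ± 0.04, and Lgr6 fell by 2.02 ± 0.19 and 2.10 ± 0.20 in R42A and MD.

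Feedback genes all rose from ESC to neural cells, 6 of 6 in each genotype. Axin2, a scaffold of the beta-catenin destruction complex and a general target of the pathway, lay at 12.6, 8.62, 16.9 and 13.5 CPM in the R42A ESC clones A04, A10, A01 and A02 and at 113 and 109 CPM in the R42A neural labels. In MD it lay at 11.5, 12.96, 20.2 and 17.9 CPM in clones 09, 30, 45 and 47 and at 114 and 120.0 CPM in the neural labels. The stage change of Axin2 was 3.34 ± 0.17 in R42A and 3.17 ± 0.17 in MD (adjusted p = 2e-06 and 2.16e-06 in edgeR). Nkd1, which binds Dishevelled and limits the signal, rose from 2.05 ± 0.484 to 77.1 ± 2.72 CPM in R42A. In MD it rose from 1.71 ± 1.01 to 47.9 ± 1.16 CPM. Against first-series ESC alone its log2 change was 5.51 ± 0.13 in R42A and 5.53 ± 0.13 in MD. Sp5, a zinc-finger repressor among the most direct targets of the pathway, rose by 4.67 ± 0.16 in R42A and 2.88 ± 0.15 in MD. Rnf43 and Znrf3, the ligases that remove Frizzled from the surface, rose by 2.97 ± 0.21 and 0.73 ± 0.07 in R42A and by 2.33 ± 0.20 and 0.27 ± 0.07 in MD. The Znrf3 value in MD was 0.43 with each chromosome scaled separately. Nkd2 rose by 0.83 ± 0.10 and 1.07 ± 0.10.

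Of the 8 tested secreted antagonists 4 rose in each genotype (Dkk1, Dkk2, Sfrp1 and Sfrp2) and 3 fell. Sfrp2, a decoy with a Frizzled-like domain, rose from 11.5 ± 2.67 CPM in R42A ESC (SD, n = 4) to 192 and 190.3 CPM in the R42A neural labels and reached 306 and 316 CPM in MD neural cells. It was the most abundant member per kilobase in both neural groups, at 88.9 CPM per kb in R42A and 144 CPM per kb in MD. Notum, an enzyme that removes the lipid from Wnt, fell by 2.32 ± 0.24 in R42A and 2.93 ± 0.25 in MD. Sfrp4 fell by 3.39 ± 0.15 and 2.63 ± 0.15. Dkk3 fell by 1.27 ± 0.33 in R42A and had a log2 change of 0.07 ± 0.33 in MD (adjusted p = 0.856 in edgeR). Sfrp5 fell by 2.75 ± 0.29 in MD and had a log2 change of -0.34 ± 0.24 in R42A (adjusted p = 0.227 in edgeR). Dkk2 rose from at most 0.217 CPM in any ESC clone to 2.37 ± 0.0483 CPM in R42A and 3.04 ± 0.195 CPM in MD neural cells.

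**Figure D2:**
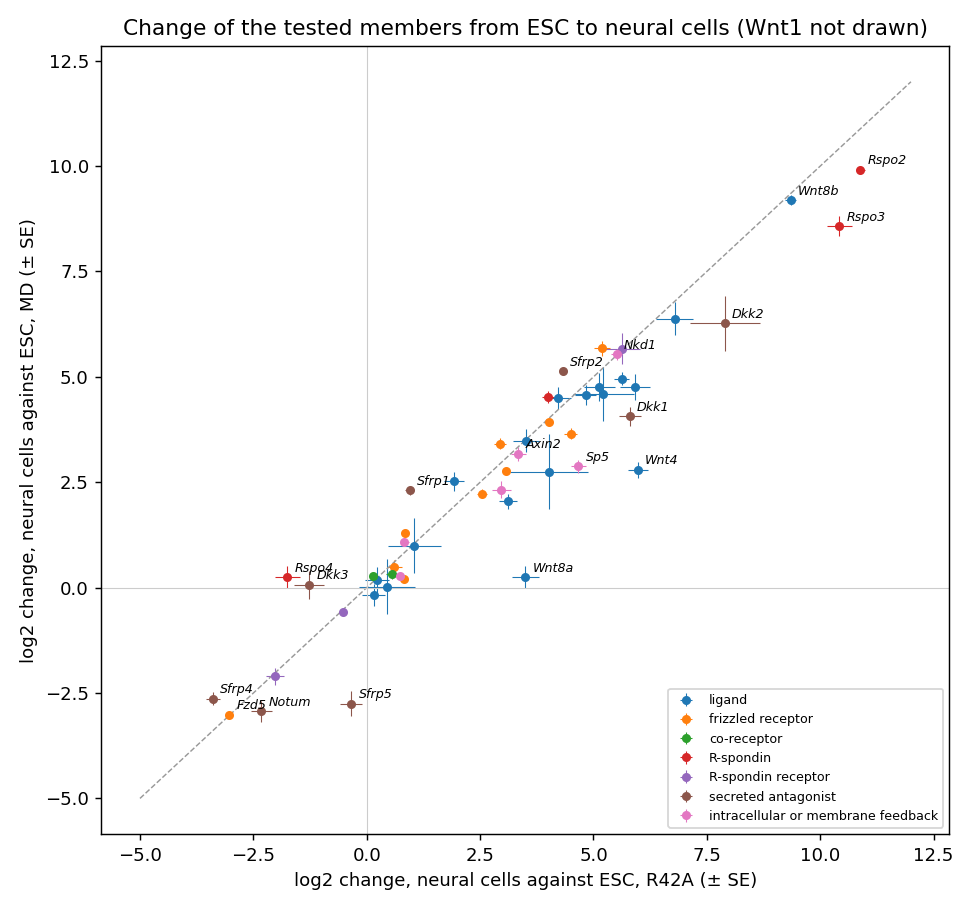
Log2 change from first-series ESC to neural cells of each tested member in R42A (horizontal axis) and in MD (vertical axis), with SE bars and the line of equal change. Wnt1 is not drawn because R42A ESC had 0 counts of it, and Wnt8a, Wnt4, Sp5, Dkk1 and Sfrp5 lie well below the line while Rspo4, Sfrp1 and Dkk3 lie above it.

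The next comparison asks which members differ between MD and R42A in ESC. Of 47 tested members, 15 were higher and 9 lower in MD, beside 36.5% of all 21567 tested genes changed, 17.1% higher and 19.4% lower. The median log2 difference was 0.194 for the members and -0.035 for all tested genes. In 16 of 47 members the 4 MD clones did not overlap the 4 R42A clones, beside 21.4% of all genes. The count of changed members was 9 without the series term, 8 in the first series alone and 15 in the second alone. Fibroblast and smooth muscle markers (8 genes) summed to 14.4 to 35.4 CPM in R42A ESC and 62.4 to 114 CPM in MD ESC, and surface ectoderm and trophectoderm markers (8 genes) to 45.4 to 70.0 and 106 to 189 CPM. Krt5, Krt14, Trp63 and Elf5 of the latter list were under 1 CPM in both genotypes. Of the fibroblast and smooth muscle list 5 genes rose, Acta2, Tagln, Col1a1, Col1a2 and Col3a1. Thy1 of that list fell, from a mean of 6.82 to 3.25 CPM, and Pdgfrb and Twist1 did not pass. Of the 10 ESC markers 1 rose and 6 fell in MD ESC, among them Esrrb, Klf4 and Tbx3, from means of 758, 155 and 81.3 CPM to 460.3, 73.8 and 31.1 CPM. Of 7 tested neural progenitor markers, Nes, Cdh2 and Vim rose, from 18.1, 4.04 and 178 CPM to 59.5, 12.8 and 238 CPM, and Sox1 fell. The part of such cells, or of a shift in cell state, in the differences was not tested.

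Of 15 tested ligands, 6 were higher and 2 lower in MD ESC. Wnt3, a ligand needed for primitive streak formation, lay at 0.185, 0.237, 0.207 and 0.311 CPM in the R42A clones A04, A10, A01 and A02 and at 0.805, 0.647, 1.99 and 1.07 CPM in the MD clones 09, 30, 45 and 47. Every MD clone was above every R42A clone, and the difference was 2.17 ± 0.28 (adjusted p = 0.000581 in edgeR) and 1.71 with each chromosome scaled separately. Wnt7b lay at 1.39, 7.10, 0.553 and 2.35 CPM in the R42A clones and 9.04, 13.1, 8.33 and 13.2 CPM in the MD clones in the same order. The groups did not overlap, although A10 came close to the lowest MD clone. The difference of 2.12 ± 0.61 (adjusted p = 0.0244 in edgeR) lost its call in 8 of 17 alternatives. They were the runs without clone 30, A02, 45 or 47, without the series term, in each series alone and with no filter. Values ran from 1.44 to 2.99 over the alternatives, with adjusted p from 2.11e-05 to 0.288. Wnt9a rose from 1.49 ± 0.330 to 3.56 ± 0.683 CPM (SD, n = 4), by 1.24 ± 0.18, or 0.78 with each chromosome scaled separately. The Wnt9a call was lost in the first series alone. Wnt8a, a ligand of the early posterior embryo, lay at 0.195, 0.103, 0.0967 and 0.226 CPM in R42A and 0.967, 0.805, 1.44 and 0.641 CPM in MD, a difference of 2.63 ± 0.36 (adjusted p = 0.000751 in edgeR) with no overlap. Wnt4, known for kidney and gonad development, lay at 0.181, 0.275, 0.118 and 0.716 CPM in R42A and at 0.694, 0.799, 0.777 and 1.59 CPM in MD. Its R42A clone A02 overlapped the MD range, and the difference of 1.61 ± 0.47 (adjusted p = 0.0263 in edgeR) lost its call in 8 of 17 alternatives. These were the runs without A04, A10, 09, 30 or 47, without the series term, in the second series alone and with no filter. Values ran from 1.29 to 2.26 over the alternatives, with adjusted p from 0.000366 to 0.327. Wnt2b rose by 0.69 ± 0.19, a call lost in 6 of 17 alternatives, those without 09, A01 or 47 among them. Wnt11, which acts in cell movement, fell from 1.15 ± 0.453 to 0.509 ± 0.220 CPM, by 1.18 ± 0.16, and Wnt6 fell from 0.880 ± 0.821 to 0.218 ± 0.139 CPM, by 1.82 ± 0.35. Both calls were lost without the series term and in the first series alone. Wnt3a, Wnt5a, Wnt5b, Wnt7a, Wnt8b, Wnt10a and Wnt16 did not pass, with log2 differences from -1.27 for Wnt10a to 1.14 for Wnt7a. The value of Wnt3a moved from 0.65 to 0.20 with each chromosome scaled separately. Wnt1, Wnt2, Wnt9b and Wnt10b were too low in ESC to be tested.

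Among receptors, Fzd2 was higher in MD ESC in both series. It lay at 3.17 and 3.05 CPM in the first-series R42A clones A04 and A10 against 9.64 and 7.19 CPM in the MD clones 09 and 30. In the second series it lay at 11.95 and 10.54 CPM in A01 and A02 against 42.4 and 31.5 CPM in 45 and 47. The groups overlap only across series, and the difference was 1.58 ± 0.13 (adjusted p = 7.89e-05 in edgeR), or 1.12 with each chromosome scaled separately. The Fzd2 call was lost without the series term. Fzd5 fell from 158 ± 17.7 to 108 ± 14.0 CPM (SD, n = 4), by 0.54 ± 0.06 (adjusted p = 0.000276 in edgeR), with no overlap. Fzd8 rose by 0.42 ± 0.11, Fzd10 fell by 0.50 ± 0.11 and Fzd4 fell by 0.36 ± 0.10. The Fzd10 call was lost without the series term and in the first series alone. The calls of Fzd8 and Fzd4 were each lost in 7 of 17 alternatives, without A04, 09, 30 or A01 for Fzd8 and without 09, 30, A01 or 47 for Fzd4 (adjusted p up to 0.566 and 0.383). Fzd1, Fzd3, Fzd6, Fzd7 and Fzd9 did not pass, nor did the co-receptors Lrp5 (-0.11 ± 0.11) and Lrp6 (-0.18 ± 0.06). The R-spondin receptor Lgr4 rose by 0.44 ± 0.04, from 93.3 and 93.1 to 126 and 129 CPM in the first series and from 69.0 and 67.8 to 91.9 and 92.6 CPM in the second. The Lgr4 call was lost without the series term. Lgr6 fell by 0.45 ± 0.14, a call that was lost in 12 of 17 alternatives, and Lgr5 had a difference of 0.74 ± 0.34 that did not pass. Of the R-spondins, Rspo2 and Rspo3 rose by 1.51 ± 0.35 and 2.94 ± 0.70 from levels near 0.05 CPM. Their MD means were 0.159 and 0.477 CPM, and the MD median of Rspo3 was 0.277 CPM, with clone 45 at 1.22 CPM. Rspo4 fell by 1.15 ± 0.21, and Rspo1 did not pass (-0.16 ± 0.13). The calls of Rspo2, Rspo3 and Rspo4 were lost in each series alone, and that of Rspo3 also with no filter on low counts.

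Sfrp1, a secreted Frizzled-related antagonist, had, with Wnt6, the largest decrease among the tested members. It lay at 71.9, 83.6, 89.0 and 86.6 CPM in the R42A clones A04, A10, A01 and A02 and at 19.8, 16.5, 33.6 and 22.0 CPM in the MD clones 09, 30, 45 and 47. The highest MD clone was far below the lowest R42A clone, and the difference was -1.88 ± 0.15 (adjusted p = 5.94e-05 in edgeR) and -1.42 with each chromosome scaled separately, where Wnt6 fell further, at -1.78. The call held in every alternative run, with values from -2.05 to -1.42. Dkk1, which binds Lrp5 and Lrp6, lay at 0.176, 0.263, 0.118 and 0.125 CPM in R42A and 0.435, 0.305, 1.61 and 0.294 CPM in MD. The groups did not overlap, clone 45 stood far above the other MD clones, and the difference of 1.79 ± 0.61 (adjusted p = 0.0471 in edgeR) lost its call in 9 of 17 alternatives, among them those without A04, 09, A01 or A02, with values from 0.81 to 2.98 and adjusted p from 0.000352 to 0.218. Sfrp4 fell by 0.50 ± 0.13, a call lost without 47, without the series term and in the first series alone. Notum, Dkk3, Sfrp2 and Sfrp5 did not pass, and Dkk2 was too low to be tested. The value of Notum turned from 0.18 to -0.29 with each chromosome scaled separately.

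Of the 6 feedback genes, 3 were higher in MD ESC and 0 lower, beside 17.1% and 19.4% of all genes. Axin2, Rnf43 and Znrf3 lie on chromosome 11, where 57.2% of all tested genes were higher and 3.23% lower. Znrf3 lay at 24.5, 22.8, 23.1 and 21.8 CPM in the R42A clones and at 36.0, 39.9, 38.2 and 38.4 CPM in the MD clones. The groups were far apart, and the difference of 0.73 ± 0.06 (adjusted p = 7.22e-05 in edgeR) fell to 0.26 with each chromosome scaled separately. Rnf43 rose from 0.648 ± 0.108 to 1.06 ± 0.222 CPM (SD, n = 4), by 0.68 ± 0.18, with values from 0.23 to 0.96 over 17 alternatives. Its call was lost with each chromosome scaled separately (0.23), without A04, A01, A02 or 47, without the series term and in the first series alone. Sp5 lay at 0.561 and 0.439 CPM in A04 and A10 against 0.948 and 0.852 CPM in 09 and 30, and at 1.98 and 1.46 CPM in A01 and A02 against 2.65 and 2.77 CPM in 45 and 47. MD was above R42A within each series, although the groups overlap across series, and the difference was 0.75 ± 0.16 (adjusted p = 0.00646 in edgeR). The Sp5 call was lost without the series term and in each series alone, with values from 0.67 to 0.90 over 17 alternatives. Axin2 had a difference of 0.27 ± 0.13 that did not pass (adjusted p = 0.137 in edgeR) and that turned to -0.20 with each chromosome scaled separately, and it passed without A04 (0.39) and with single libraries (0.31). Nkd1 and Nkd2 did not pass (-0.37 ± 0.22 and -0.13 ± 0.09), and with each chromosome scaled separately the value of Nkd1 was 0.10.

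**Figure D3:**
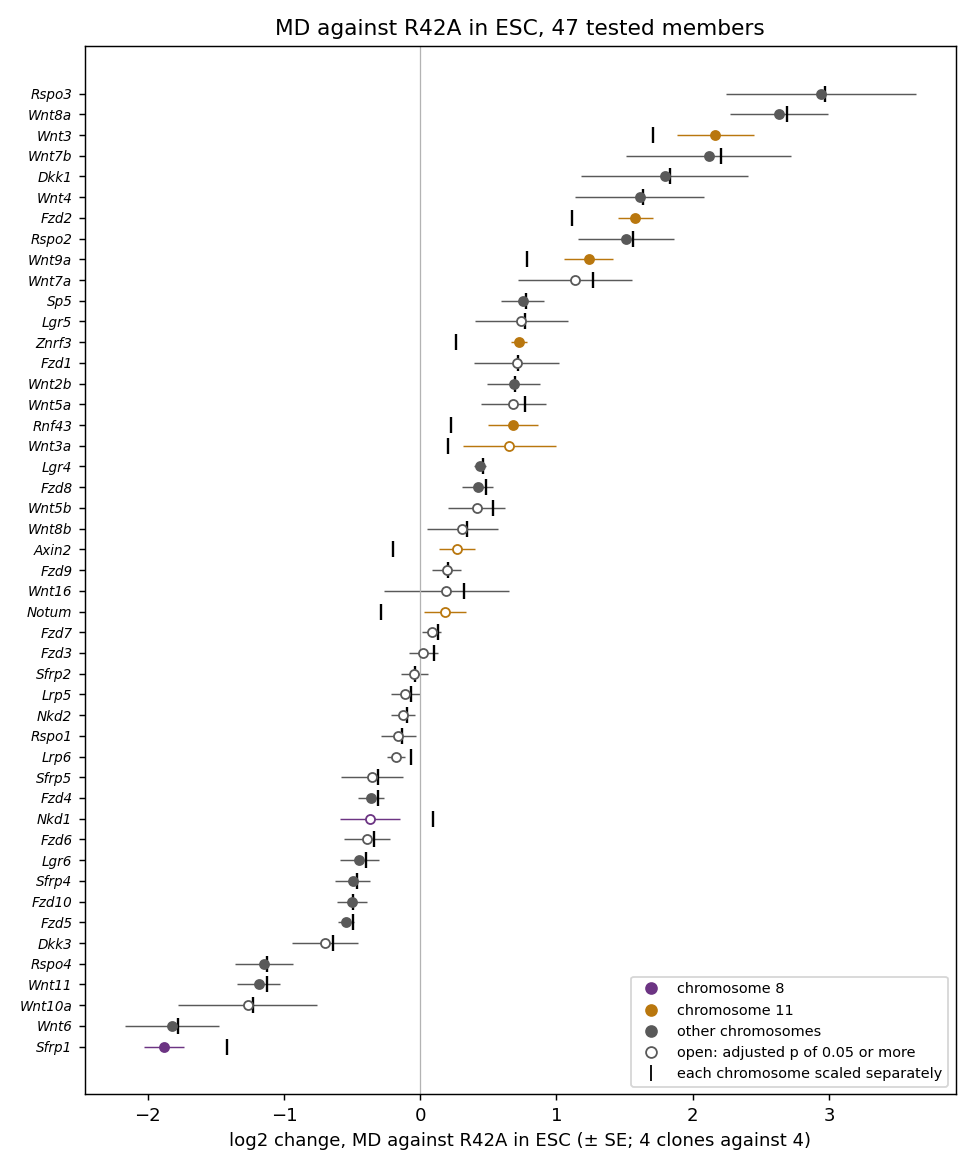
Log2 difference between MD and R42A ESC (4 clones against 4, with SE) for the 47 tested members, in order of size and coloured by chromosome 8, chromosome 11 or other. Filled points passed an adjusted p of 0.05, and the black ticks, which give the value with each chromosome scaled separately, lie to the left of the points on chromosome 11 and to the right of those on chromosome 8.

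MD and R42A were then compared in neural cells. Of 52 tested members, 8 were higher and 13 lower in MD, beside 33.7% of all 23844 tested genes changed, 17.4% higher and 16.3% lower. The median log2 difference was 0.013 for the members and -0.002 for all genes, and in 46 of 52 members the labels of the 2 genotypes did not overlap, beside 75.7% of all genes. With the neural libraries of a genotype taken as 1 sample, edgeR called 0 of 52 members and 0.00% of all genes, with 14 members at an unadjusted p under 0.05. Without label 09 or without label 30, 9 members passed, in both cases Wnt3, Fzd2, Fzd7, Lgr4, Rspo2, Sfrp1, Sfrp2, Sfrp5 and Nkd1. Neuron markers (10 genes, Dcx and Tubb3 among them) summed to 780 to 808 CPM in R42A and 2126 to 2131 CPM in MD, and all 10 rose. Fibroblast and smooth muscle markers (8 genes) summed to 213 to 226 CPM in R42A and 116 to 120 CPM in MD, but 5 of the 8 rose and 3 fell. The contractile genes Acta2 and Tagln fell, from means of 82.3 and 105 CPM to 3.91 and 3.72 CPM, as did Thy1, while the collagen genes Col1a1, Col1a2 and Col3a1 rose from 6.99, 6.70 and 9.97 CPM to 28.5, 29.6 and 37.4 CPM, as did Pdgfrb and Twist1. Midbrain, hindbrain and spinal markers (8 genes) summed to 194 to 212 CPM in R42A and 85.8 to 89.1 CPM in MD. En2 and En1 fell, from means of 148 and 32.8 CPM to 50.7 and 9.10 CPM, Hoxa2 rose from 4.23 to 7.95 CPM, and the other 5 did not pass. Egr2, Hoxb1 and Hoxb4 of that list were under 1 CPM in both. Neural crest and dorsal neural tube markers (8 genes) summed to 108.5 to 111.4 CPM in R42A and 143 to 150.5 CPM in MD. Sox10, Tfap2a and Pax3 of these rose and Msx1 fell. Of 6 forebrain markers, Lhx2 rose from a mean of 14.6 to 53.2 CPM and Otx2 fell from 157 to 95.9 CPM. Of 8 endoderm markers, Cxcr4 rose and Afp, Ttr and Apoa1 fell in MD. The part of differing cell mixtures in the results was not tested.

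Sfrp5, Wnt4 and Wnt6 had the largest neural decreases. Wnt4 lay at 15.3 and 14.7 CPM in the R42A labels A04 and A10 and 5.17 and 5.79 CPM in the MD labels 09 and 30, a difference of -1.46 ± 0.17 (adjusted p = 0.00103 in edgeR). Sfrp5 lay at 0.845 and 0.671 CPM against 0.0910 and 0.140 CPM (-2.72 ± 0.29). Wnt6 lay at 0.361 and 0.378 CPM against 0.129 and 0.149 CPM (-1.41 ± 0.29). In each of these genes, picked for the size of their decrease, both MD labels were below both R42A labels. The labels of the 2 genotypes did not overlap for 75.7% of all genes. Wnt1 fell from 19.4 and 17.2 to 12.24 and 12.03 CPM (-0.60 ± 0.14, adjusted p = 0.0220 in edgeR). Wnt3 and Wnt10b were the ligands that rose. Wnt3 went from 11.01 and 10.53 CPM to 23.1 and 24.8 CPM. Its difference was 1.15 ± 0.13 (adjusted p = 0.000927 in edgeR), or 0.71 with each chromosome scaled separately, which also passed. Wnt10b rose from 0.827 and 0.823 to 1.52 and 1.45 CPM (0.84 ± 0.22, and 0.83 with that scaling, above the value of Wnt3). The other 14 ligands did not pass, Wnt7b among them, which lay at 162 and 164 CPM in R42A and 279 and 287 CPM in MD (0.79 ± 0.56, adjusted p = 0.322 in edgeR). With each chromosome scaled separately Wnt9a moved from 0.02 to -0.43, Wnt3a from 0.41 to -0.035 and Wnt9b from 0.48 to 0.033.

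Of the 10 Frizzled receptors 2 rose and 4 fell in MD neural cells. Fzd1 rose from 30.4 and 29.7 to 52.2 and 54.0 CPM (0.82 ± 0.14, adjusted p = 0.00449 in edgeR). Fzd2 rose from 71.0 and 73.7 to 110.1 and 115 CPM (0.63 ± 0.12), and its call was lost with each chromosome scaled separately, at 0.19. Fzd7 fell from 112 and 111 to 74.4 and 75.2 CPM (-0.58 ± 0.07, adjusted p = 0.00124 in edgeR). Fzd5, Fzd6 and Fzd3 fell by 0.55 ± 0.07, 0.58 ± 0.17 and 0.18 ± 0.05. Lrp5 fell by 0.49 ± 0.12. With each chromosome scaled separately Fzd3 and Lrp5 lost their calls, at -0.14 and -0.34 (adjusted p = 0.0865 and 0.0702 in edgeR), and Fzd3 lost its call in 7 of 12 alternatives, single libraries among them. Fzd1, Fzd5, Fzd6, Fzd3 and Lrp5 did not pass without 09 or without 30. The Fzd2 call was lost without A04 or A10. Fzd4, Fzd8, Fzd9, Fzd10 and Lrp6 did not pass. Lgr4 rose by 0.42 ± 0.04, from 67.2 and 67.7 to 90.7 and 90.9 CPM, and Rspo2 by 0.66 ± 0.06 (adjusted p = 0.000507 and 0.000336 in edgeR). Lgr5, Lgr6, Rspo1, Rspo3 and Rspo4 did not pass, with Lgr5 at 6.21 and 6.35 CPM in R42A and 11.2 and 11.7 CPM in MD (0.86 ± 0.29, adjusted p = 0.0565 in edgeR).

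The 2 abundant Sfrp antagonists moved in opposite directions in neural cells. Sfrp2 rose from 192 and 190.3 to 306 and 316 CPM in MD (0.69 ± 0.07, adjusted p = 0.000715 in edgeR). Sfrp1 fell from 154 and 156 to 95.1 and 94.7 CPM (-0.71 ± 0.10, adjusted p = 0.00188 in edgeR), and its call was lost with each chromosome scaled separately, at -0.39. Dkk1 fell from 13.01 and 12.35 to 6.39 and 6.80 CPM (-0.95 ± 0.19, adjusted p = 0.00876 in edgeR). Sfrp4, Dkk2, Dkk3 and Notum did not pass. Notum moved from -0.23 to -0.68 with each chromosome scaled separately. Among feedback genes, Sp5 fell from 13.8 and 12.4 to 6.94 and 7.13 CPM (-0.90 ± 0.14, adjusted p = 0.00288 in edgeR), and Nkd1 from 79.1 and 75.2 to 47.1 and 48.7 CPM (-0.69 ± 0.10), or -0.37 with each chromosome scaled separately, which also passed. Axin2 did not pass, with a difference of 0.07 ± 0.16 (adjusted p = 0.756 in edgeR) that turned to -0.37 with each chromosome scaled separately. Znrf3 rose by 0.26 ± 0.07, a direction that flipped to -0.18 with each chromosome scaled separately. Rnf43 and Nkd2 did not pass, and with each chromosome scaled separately Rnf43 moved from -0.20 to -0.64 and passed (adjusted p = 0.0289 in edgeR).

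The difference between the MD effect in neural cells and that in the ESC clones with the same labels was tested directly. It passed for 16 of 52 members, 5 with a higher and 11 with a lower MD effect in neural cells, beside 22.9% of all genes, 11.9% higher and 11.1% lower. The median over members was -0.249 and over all genes 0.018. Without label 09 edgeR called 0 members, with 15 at an unadjusted p under 0.05, and without label 30 it called 1, Rspo3. With the neural libraries of a genotype as 1 sample it called 0, with 14 at an unadjusted p under 0.05. Each MD effect below is that of 1 stage, and the difference carries the test.

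Wnt8a and Wnt4 had the largest differences. Wnt8a had an MD effect of 2.61 in first-series ESC and -0.64 in neural cells, where it lay at 1.60 and 1.87 CPM in R42A and 1.12 and 1.11 CPM in MD, a difference of -3.24 ± 0.40 (adjusted p = 0.00220 in edgeR). Wnt4 had effects of 1.73 and -1.46 and a difference of -3.19 ± 0.27 (adjusted p = 0.000688 in edgeR). In R42A Wnt4 rose from ESC to neural cells by 5.98 ± 0.22, and in MD by 2.79 ± 0.19. Wnt8a rose by 3.50 ± 0.30 in R42A and had a stage change of 0.25 ± 0.26 in MD (adjusted p = 0.400 in edgeR). Wnt4 passed in both stages with opposite signs, while the neural difference of Wnt8a did not pass (adjusted p = 0.107 in edgeR).

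Sp5 and Dkk1, a target and an antagonist, also had MD effects of opposite sign in the stages. Their ESC calls were lost in the first series alone, whose clones are the ones used here. The ESC call of Wnt4 held there but was lost in the second series alone. Over the ESC alternatives the call was lost in 8 of 17 for Wnt4, 3 of 17 for Sp5 and 9 of 17 for Dkk1. The MD effect of Sp5 was 0.88 in first-series ESC and -0.90 in neural cells, a difference of -1.78 ± 0.21 (adjusted p = 0.00192 in edgeR). That of Dkk1 was 0.79 and -0.95, a difference of -1.73 ± 0.31 (adjusted p = 0.00830 in edgeR). Axin2 had effects of 0.24 and 0.07 and a difference of -0.17 ± 0.22 (adjusted p = 0.637 in edgeR), which changed sign, to 0.041, on leaving out A10 and was -0.43 and passed on leaving out A04 (adjusted p = 0.0118 in edgeR). These 3 genes were picked after their values were seen, to show promoter windows, and the 250 bases before their start sites were read from RefSeq (build GRCm38.p6, the patch release of mm10) and searched on both strands for CTTTGAA and CTTTGAT, the core letters that TCF/LEF factors are known to bind. Capitals mark a match. The windows are chr2:70474673-70474922 (plus strand) for Sp5, chr19:30549497-30549746 (minus strand) for Dkk1 and chr11:108920099-108920348 (plus strand) for Axin2.
Sp5: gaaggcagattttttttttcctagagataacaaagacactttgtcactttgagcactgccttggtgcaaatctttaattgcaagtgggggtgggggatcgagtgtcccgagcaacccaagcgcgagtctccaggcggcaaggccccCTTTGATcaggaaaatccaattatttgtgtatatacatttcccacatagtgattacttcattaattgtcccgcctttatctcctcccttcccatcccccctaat
Dkk1: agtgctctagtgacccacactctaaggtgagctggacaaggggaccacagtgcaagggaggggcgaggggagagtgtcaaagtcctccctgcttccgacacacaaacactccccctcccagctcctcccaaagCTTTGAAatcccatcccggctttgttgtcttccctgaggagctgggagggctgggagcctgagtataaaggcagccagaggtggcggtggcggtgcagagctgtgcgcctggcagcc
Axin2: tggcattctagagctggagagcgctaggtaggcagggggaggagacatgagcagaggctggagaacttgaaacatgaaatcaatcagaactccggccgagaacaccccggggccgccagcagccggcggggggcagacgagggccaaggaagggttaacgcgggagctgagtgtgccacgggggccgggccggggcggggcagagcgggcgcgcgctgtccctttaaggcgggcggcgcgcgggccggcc
Sp5 holds CTTTGAT 104 bases before its RefSeq start, Dkk1 holds CTTTGAA 117 bases before, and the Axin2 window holds neither. In the GENCODE M21 annotation Dkk1 starts at chr19:30549665, inside this window, so its match lies within that gene. Of 34 members with a window, 4 hold a match, the others being Wnt5b and Wnt11, beside 8.63% of 27025 genes with a window. The windows of Wnt5b and Wnt11 hold a match although their differences between stages did not pass. Wnt4, with 1 of the widest reversals, has a window with no match, as have Sfrp2, Sfrp5, Rspo4, Wnt9a, Fzd4 and Fzd7, whose differences also passed. A match describes letters and shows no binding, and the part of these letters in the values was not tested.

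**Figure D4:**
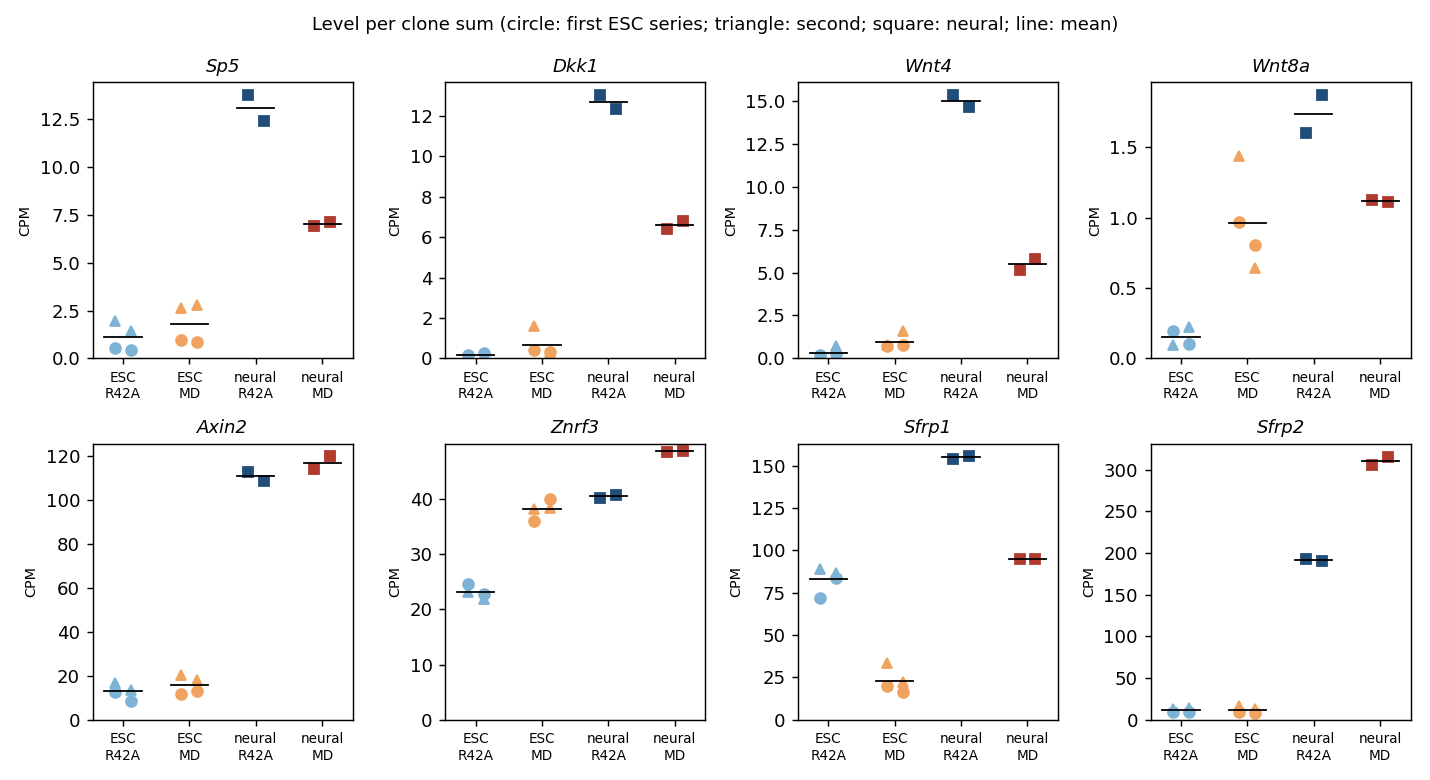
Level in CPM of Sp5, Dkk1, Wnt4, Wnt8a, Axin2, Znrf3, Sfrp1 and Sfrp2 per clone sum (circles, first ESC series; triangles, second; squares, neural), with the group mean as a line. Sp5, Dkk1 and Wnt4 are lower in MD than in R42A neural cells although their MD values in ESC are the higher ones, and the neural Axin2 values of MD are not below those of R42A.

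Sfrp1, Sfrp2 and Sfrp4 shifted the other way. Sfrp1 had an MD effect of -2.07 in first-series ESC and -0.71 in neural cells, a difference of 1.36 ± 0.14 (adjusted p = 0.00131 in edgeR), so that the fall was smaller in neural cells. Sfrp2 had effects of -0.12 and 0.69 (difference 0.81 ± 0.11) and Sfrp4 of -0.34 and 0.41 (0.76 ± 0.20). Sfrp5 went against these, with effects of -0.31 and -2.72 and a difference of -2.41 ± 0.38. Rspo4 had effects of -1.43 and 0.57 and a difference of 2.002 ± 0.38, Rspo2 of 1.62 and 0.66 (-0.96 ± 0.17) and Rspo3 of 2.24 and 0.39 (-1.85 ± 0.42). Among receptors the difference was -0.84 ± 0.17 for Fzd2, -0.62 ± 0.10 for Fzd7 and 0.46 ± 0.10 for Fzd4, and among other members -1.06 ± 0.25 for Wnt9a and -0.45 ± 0.10 for Znrf3. The other 36 tested members did not pass. Nkd1, at 0.021, was at -0.021 with each chromosome scaled separately.

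**Figure D5:**
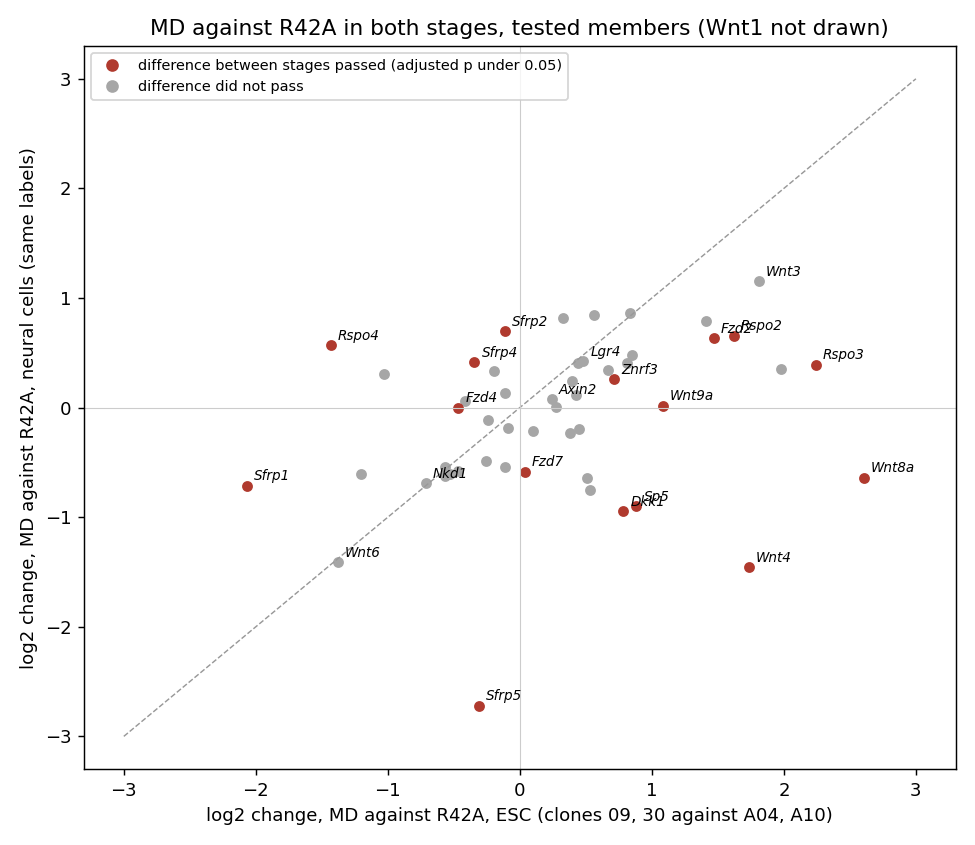
MD against R42A as a log2 difference in first-series ESC (horizontal axis) and in neural cells (vertical axis) for each tested member other than Wnt1. Red points, 16 in all, passed the test of the difference between stages, and Wnt4, Wnt8a, Sp5 and Dkk1 lie in the lower right quadrant, with a positive effect in ESC and a negative one in neural cells.

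Other genes of the pathway were read from lists, beside 36.5% of all genes changed in ESC, 33.7% in neural cells and 22.9% in the difference between stages. With the neural libraries of a genotype as 1 sample edgeR called 0.00% of all genes in neural cells and in the difference, so no neural call of a list gene passed there. Without label 09 or 30 it called 6.52% and 6.21% of all genes in neural cells, and 0.314% and 0.460% in the difference. Of 8 Wnt secretion genes, 2 rose and 3 fell in MD ESC and 0 rose and 5 fell in MD neural cells. Wls, the carrier that takes Wnt to the surface, rose by 1.09 ± 0.30 in ESC, and Vps35, a retromer subunit encoded on chromosome 8, fell by 0.64 ± 0.10 in ESC and 0.63 ± 0.12 in neural cells. Of 13 tested genes of other secreted or surface antagonists, 6 rose and 2 fell in ESC, and of 15 in neural cells 1 rose and 3 fell. Igfbp4, which binds Frizzled and Lrp6, rose by 1.18 ± 0.17 in ESC and 0.89 ± 0.12 in neural cells, and it lies on chromosome 11. Frzb rose from ESC to neural cells by 8.63 ± 0.38 in R42A and 6.33 ± 0.33 in MD, and the difference of -2.30 ± 0.51 between these passed. Of 18 genes of the destruction complex and beta-catenin, 6 rose and 3 fell in ESC and 6 rose and 5 fell in neural cells. Apc2, a neural relative of Apc, rose by 1.03 ± 0.28 and 1.51 ± 0.11, and Csnk1e, a kinase of the pathway, fell by 1.09 ± 0.07 in ESC.

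Of 15 TCF/LEF factors and nuclear partners, 5 rose and 1 fell in MD ESC, and 2 rose and 6 fell in MD neural cells, beside the same 36.5% and 33.7% of all genes. Lef1, a DNA-binding partner of beta-catenin and itself a target, rose by 0.93 ± 0.16 in ESC, from 6.72, 4.96, 6.32 and 4.67 CPM to 12.9, 8.88, 11.6 and 9.71 CPM. In neural cells it fell by 0.61 ± 0.19, from 30.1 and 28.9 to 19.1 and 19.7 CPM, and the difference between stages was -1.54 ± 0.27 (adjusted p = 0.00858 in edgeR). Of 26 textbook target genes, 16 rose and 3 fell in MD ESC, beside 17.1% and 19.4% of all genes. In MD neural cells 3 rose and 10 fell, beside 17.4% and 16.3% of all genes. The median log2 difference of that list was 0.655 in ESC and -0.481 in neural cells, beside -0.035 and -0.002 over all genes. Of the 16 that rose in ESC, Cd44 rose by 1.79 ± 0.31, and T, Cdx2, Ccnd1, Lef1, Tcf7 and Fgf8 were among the others. The 3 that fell were Cdx1, Bmp4 and Tbx3, by 2.33 ± 0.30, 1.59 ± 0.12 and 1.40 ± 0.10. Tbx3 is also a naive pluripotency gene. In neural cells Fgf8 and Cdx2 fell by 1.71 ± 0.20 and 1.54 ± 0.30, while Sox9, encoded on chromosome 11, and Neurog1, which mark progenitors and early neurons, rose by 1.47 ± 0.19 and 1.14 ± 0.14. The difference between stages passed for 16 of the 26 targets, 2 higher and 14 lower in neural cells, beside 11.9% and 11.1% of all genes. Of 17 tested genes of the non-canonical and planar polarity branch, 7 rose and 3 fell in ESC and 1 rose and 9 fell in neural cells. Ror1, a receptor for Wnt5a, rose by 1.96 ± 0.17 in ESC and fell by 1.496 ± 0.13 in neural cells, a difference of -3.40 ± 0.18, and Ror2 fell by 1.16 ± 0.11 in ESC.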

How the data were processed

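Total RNA was measured in 32 libraries, prepared with TRIzol and a KAPA Hyper Prep kit as the labels say. The authors deposited 1 table of raw expected counts per library, in which 1.46% to 1.70% of genes had a value over 1e-06 from a whole number. RSEM 1.3.0, STAR 2.7.1a, DESeq2 and Trim Galore 0.60 are listed in the submitters' processing notes, with the build mm10; the annotation release and strand setting are not given in the sources used here, so overlapping and antisense genes are uncertain. Of 55665 entries, 92 ERCC spike-ins, all at 0, were left out, and 55480 of the 55573 genes were matched to GENCODE M21 for position and exon length.

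Expected counts were rounded and summed per clone. Tests were edgeR 4.0.16 quasi-likelihood F-tests (R 4.3.3; robust, TMM, filterByExpr with a minimum count of 10) with Benjamini-Hochberg adjustment over all genes tested, called at 0.05; a log2 change carries its standard error (SE). ESC were tested over 8 clone sums with library series as covariate. All neural, stage and difference results came from 1 fit of 4 groups over the 8 sums of labels A04, A10, 09 and 30. p-values measure the spread between clone sums, part of which may be technical. Alternatives were RLE scaling, no filter, each chromosome scaled separately (chromosomes with at least 200 genes), DESeq2 1.42.0, single libraries with and without a replicate block, no series term, each series alone, neural sums alone and each clone left out. Taking the neural libraries of a genotype as 1 sample was added after seeing the data. Where a group had a count of 0, the fold was set against 3 counts, which covers counting error only.

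Members and gene lists were chosen with earlier results of these data known. Full values were given for up to 10 called members per comparison with the largest log2 change and a mean of at least 1 CPM in the higher group, for Axin2 and Sp5, and for up to 4 genes of each other list. Values of Wnt8a, Wnt4, Dkk1 and Lgr4 in ESC, of Sfrp5, Wnt6, Wnt1, Wnt7b, Lgr4, Lgr5, Fzd2 and Fzd7 in neural cells, of Fzd3, Fzd5, Rspo1, Axin2 and Notum over the stages and of Rspo4 and Sfrp4 in the difference were added after seeing them. Promoter windows were 250 bases before RefSeq starts; CTTTGAA and CTTTGAT were searched on both strands.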

Additional observations from a re-analysis of the deposited data

Results flagged for a closer look

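In ESC, 94 member and genotype groups of 4 clones were checked for a clone far from the others, and chance alone flags about 1 in 20 such groups. In 4 of them the gap to the nearest clone, as a share of the group's range, was past Dixon's critical value for 4 samples. Fzd1 lay at 3.18 CPM in MD clone 45 and at 0.889 to 1.21 CPM in the other MD clones, and Dkk1 at 1.61 CPM in the same clone and 0.294 to 0.435 CPM in the others. In clone 45 Rspo3 (1.22 CPM), Wnt1 (0.308 CPM) and Dkk2 (0.217 CPM) were also the highest of the 8 ESC clones, as were En1 (3.90 CPM) and Pax3 (0.455 CPM), genes of the midbrain and the dorsal neural tube. Sox1 in clone 45 (9.37 CPM) was the highest of the MD clones, but lay at 12.02, 18.96 and 10.85 CPM in the R42A clones A04, A01 and A02. The marker lists that hold En1 and Pax3 did not peak in clone 45. Both summed highest among MD clones in 47, at 73.15 and 36.4 CPM, and reached 118 and 38.0 CPM in R42A clone A01. The neural progenitor list did peak in clone 45, at 509 CPM. The part of a few differentiated cells in these values was not tested. Wnt4 lay at 1.59 CPM in MD clone 47 and 0.694 to 0.799 CPM in the others, and Wnt10a at 0.241 CPM in R42A clone A02 and 0.0510 to 0.0760 CPM in the others.

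The MD effect differed between neural cells and ESC, in edgeR's test of the difference itself, for 16 members. The effect in neural cells less that in ESC was -3.24 for Wnt8a, -3.19 for Wnt4, -2.41 for Sfrp5, -1.85 for Rspo3, -1.78 for Sp5, -1.73 for Dkk1, -1.06 for Wnt9a, -0.96 for Rspo2, -0.84 for Fzd2, -0.62 for Fzd7 and -0.45 for Znrf3 on the log2 scale. It was 2.002 for Rspo4, 1.36 for Sfrp1, 0.81 for Sfrp2, 0.76 for Sfrp4 and 0.46 for Fzd4. With the neural libraries of a genotype as 1 sample 0 of these passed.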

How the results depend on the processing

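Of 24 members changed in ESC, the count was 9 without the series term, 8 in the first series alone and 15 in the second, and 18 to 28 on leaving out 1 clone. Of 21 in neural cells it was 39 with the neural sums tested alone, 0 with the neural libraries of a genotype as 1 sample, and 9 to 28 on leaving out 1 label, with 9 without 09 and 9 without 30. Of 16 differences between stages it was 0 with that 1 sample and 0 to 23 on leaving out 1 label, with 0 without 09 and 1 without 30. A lone sum left in a group was assumed to vary like the other groups. Stage counts stayed within 44 to 48 of 52 in R42A and 40 to 45 in MD over the alternatives run. With each chromosome scaled separately Axin2 turned to -0.20 in ESC and -0.37 in neural cells, and Znrf3 to -0.18 in neural cells. Nkd1 turned to 0.10 and Notum to -0.29 in ESC, and Wnt3a to -0.035 and Wnt9a to -0.43 in neural cells. The Axin2 difference ran from -0.43 to 0.041 on leaving out 1 label. RLE scaling, DESeq2 and the other alternatives kept the counts within 1.5 times. The cause of these changes was not tested.

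The replicate numbers were not taken to pair the libraries, because not every same-numbered pair correlated above 0.1: same-numbered libraries of different clones had correlations from -0.698 to 0.780 in the first series, -0.075 to 0.776 in the second and -0.055 to 0.253 in neural cells. Their medians of 0.199, 0.354 and 0.114 were above those of other-numbered pairs, at -0.07, -0.129 and -0.114. With single libraries and a replicate block the counts were 30 (31 without the block) in ESC, 26 (26) in neural cells, 44 (45) and 42 (44) for the stage in R42A and MD, and 21 (21) for the difference. Low counts limit Wnt1, Wnt2, Wnt9b, Wnt10b and Dkk2 in ESC and Dkk4 everywhere.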
